A study of Homo sapiens with 20 samples.

Results

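The peak summits described here lie on transcripts that the annotation classes as nonsense-mediated decay (NMD) transcripts. They were taken from 4 deposited lists of peaks from acetylated RNA immunoprecipitation sequencing (acRIP-seq), by the biotype written in the name of the transcript sequence. They number 37631 of 495936 summits in all. One entry of a list is 1 summit, and several summits can share an interval, so the 10975 summits of the NAT10 knockout ac4C list fall in 5858 intervals on 3976 transcripts of 2613 genes.

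K562 is a human leukaemia line with erythroid potential, and the study disrupted NAT10 in it with CRISPR-Cas9 directed at exon 5. RNA fragments of NAT10 knockout cells and of wild type cells were precipitated with an antibody against N4-acetylcytidine (ac4C) or with normal rabbit IgG, in 2 libraries each, and 2 input libraries of each genotype were sequenced without precipitation. The authors merged the 2 libraries before calling peaks, so there is 1 list for each of knockout ac4C, knockout IgG, wild type ac4C and wild type IgG, and no comparison between lists has a replicate or a test. RNA-seq and ribosome footprint counts came from 2 knockout and 2 wild type libraries each. No treatment or differentiation step was labelled, and the sources used here do not state whether the knockout line is a single clone. The knockout acRIP-seq samples were deposited as a separate later set with its own protocol text, so genotype and that set cannot be told apart in any comparison of knockout with wild type lists.

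Nonsense-mediated decay is the surveillance pathway that degrades messages whose stop codon is read as premature, usually because an exon junction complex still sits downstream of it when UPF1 is recruited to the terminating ribosome. Many genes for splicing regulators and ribosomal proteins make such isoforms through alternative splicing, and cells use them to limit their own output. The biotype is an annotation of the isoform, not a measurement of its decay. NAT10 is the acetyltransferase that makes ac4C in ribosomal RNA and transfer RNA, and it has been reported to act on messenger RNA.

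The knockout ac4C list held 10975 summits on NMD transcripts, or 6.74% of its 162944 summits. The knockout IgG list held 9635, or 6.53% of 147469. The wild type ac4C list held 8538, or 9.26% of 92194, and the wild type IgG list held 8483, or 9.09% of 93329. The share on NMD transcripts was thus close between antibodies within a genotype and lower in both knockout lists, which were also the longer ones.

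The strength of a summit is given by the peak caller's fold value, which is the authors' own value and is given as listed. Every fold value on NMD transcripts was a whole multiple, within a tolerance of 0.02, of 1 step per list: 0.104 in the knockout ac4C list, 0.142 in the knockout IgG list, 0.0309 in the wild type ac4C list and 0.033 in the wild type IgG list. The divisor was therefore the same for each of these summits within its list, and the fold ranks summits by pileup and not by the input level of the same transcript. Because the step differs between lists, folds of different lists are set side by side as a description, and a gap between them is not a measure of change. The median was 4.17 in the knockout ac4C list (25th to 75th percentile 3.13 to 6.15), 4.41 in the knockout IgG list (3.27 to 6.41), 3.77 in the wild type ac4C list (2.5 to 6.95) and 3.76 in the wild type IgG list (2.47 to 6.89). Summits on protein-coding transcripts had medians of 4.59 in the knockout ac4C list, 4.84 in the knockout IgG list, 3.83 in the wild type ac4C list and 3.86 in the wild type IgG list. The highest folds listed were 109.5 (ac4C) and 119.6 (IgG) in knockout, against 292.7 and 289.1 in wild type.

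**Figure D1:**
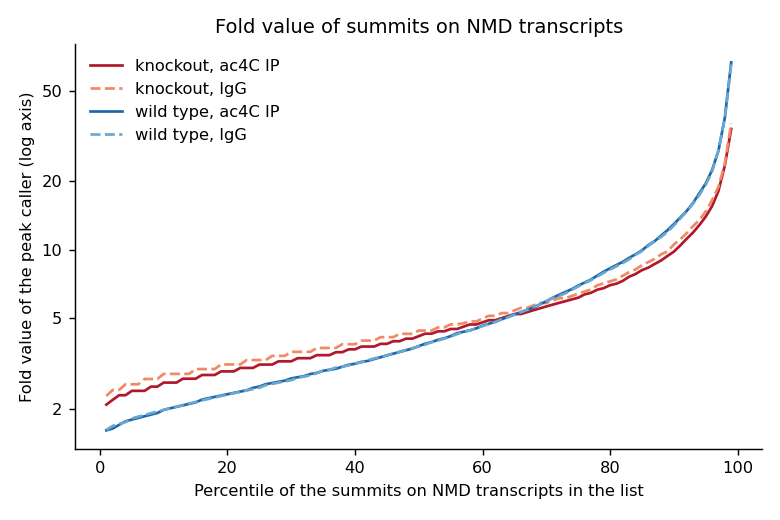
Fold value of the peak caller (log axis) at each percentile of the summits on NMD transcripts, for the knockout ac4C, knockout IgG, wild type ac4C and wild type IgG lists. The ac4C and IgG curves of a genotype run close together (medians 4.17 and 4.41 in knockout, 3.77 and 3.76 in wild type), and the wild type curves are lower at the bottom and higher at the top.

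Most ac4C summits on NMD transcripts had an IgG counterpart. In knockout cells, 1664 of 10975 ac4C summits (15.2%) overlapped no IgG interval on the same transcript by at least 1 base. The share over all summits in that list was 11.7%. The 95% exact binomial interval was 14.5 to 15.8, counting error only. Such intervals, here and below, take summits as independent. Summits of 1 peak interval share the outcome and isoforms share sequence, so they are too narrow. In the other direction 880 of 9635 knockout IgG summits (9.13%) had no ac4C counterpart, against 7.09% of all. In wild type cells 423 of 8538 ac4C summits (4.95%, interval 4.5 to 5.44) lacked an IgG counterpart, against 3.63% of all, and 313 of 8483 IgG summits (3.69%) lacked an ac4C counterpart, against 3.46% of all. The shares on NMD transcripts were thus a little above the background of all summits, and summits with IgG alone were also present in both genotypes. Both lists of a genotype were called against input, per their file names. They were not treated as independent lists, and whether a shared input adds to their overlap was not tested.

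Summits without a counterpart were low ones. Their median fold was 2.92 in the knockout ac4C list, against 4.59 for overlapping summits, and 2.04 in the wild type ac4C list, against 3.96. Their highest fold was 10.8 in the knockout and 4.54 in the wild type list. The share depends on how a counterpart is defined: by a summit within 100 bases, a criterion chosen after the data were seen, 31.6% of knockout ac4C summits lacked an IgG counterpart, against 27.6% of all summits, and so did 17.9% of wild type ac4C summits, against 18.05% of all. In wild type the share on NMD transcripts was then not above that of all summits.

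The genotypes differed more than the antibodies. Of the knockout ac4C summits, 3060 (27.9%) overlapped no wild type ac4C interval, against 35.8% of all summits, and 2778 wild type ac4C summits (32.5%) overlapped no knockout ac4C interval, against 23.2% of all. The IgG lists gave similar values: 29.1% of knockout summits had no wild type counterpart, against 36.7% of all, and 37.3% of wild type summits had no knockout counterpart, against 27.4% of all. On protein-coding transcripts alone the shares without a counterpart were 26.6% (ac4C) and 27.03% (IgG) in knockout, against 20.8% and 24.7% in wild type. The NMD shares were thus above those of all summits and of coding summits in the wild type lists, and in the knockout lists they were below those of all summits and slightly above those of coding summits; the difference was not tested. With the summit required within 100 bases, 35.0% of knockout ac4C summits had a wild type ac4C counterpart, against 28.75% of all.

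**Figure D2:**
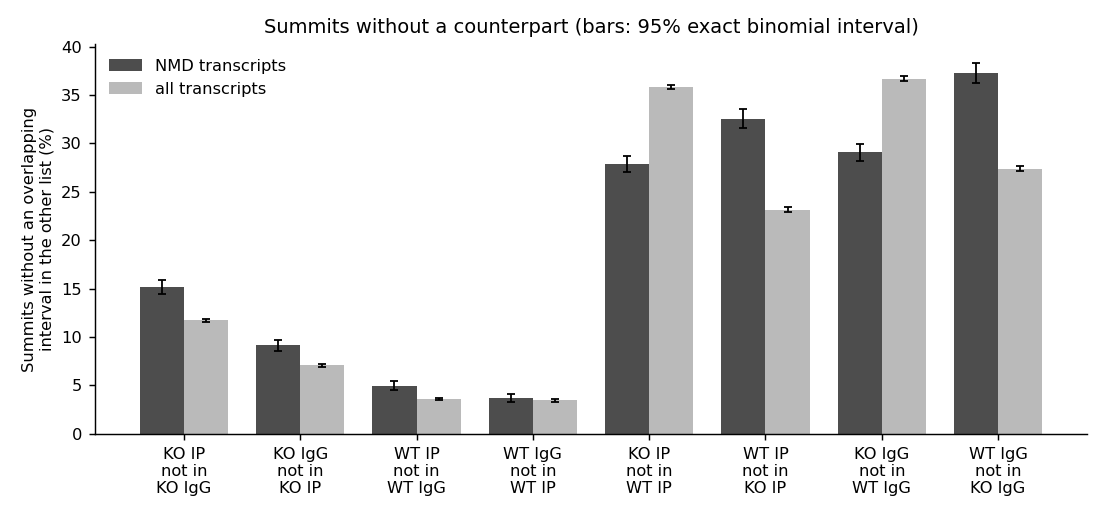
Share of summits (%) with no overlapping interval (at least 1 base) in the other list, for NMD transcripts (dark bars) and all transcripts (light bars). Error bars are 95% exact binomial intervals. They cover counting error only and are too narrow, since summits of 1 peak interval are not independent. Between ac4C and IgG of one genotype the NMD shares run from 3.69% to 15.2%, and between genotypes from 27.9% to 37.3%.

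In genes, 3380 had an NMD summit in at least 1 list and 1537 of them (45.5%) in all 4. Both ac4C lists together named 3218 genes, of which 1766 were in both, 847 in the knockout list only and 605 in the wild type list only. Of the genes with an NMD summit in the knockout ac4C list 67.6% were also in the wild type one, against 48.3% of genes over all biotypes, and of those in the wild type list 74.5% were also in the knockout one, against 91.4% over all biotypes. Taking both antibodies, 658 genes (19.5% of the 3380) were in both knockout lists and neither wild type list. Another 447 (13.2%) were in both wild type lists and neither knockout list. These counts were not made over all biotypes, so neither has a background share. Genes in both ac4C lists and neither IgG list numbered 5, and genes in both IgG lists and neither ac4C list numbered 3. The 5, which were looked up after their count was seen, were ABCC5 (a membrane transporter), FZR1 (an activator of the anaphase-promoting complex), KLK1 (a kallikrein protease), NADK (NAD kinase) and PPP2R2A (a regulatory subunit of protein phosphatase PP2A).

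NMD summits rarely stood apart from the coding isoforms of the same gene. In the knockout ac4C list 92.3% of them lay in genes that also had a summit on a protein-coding transcript, and the share was 91.8% in the knockout IgG list, 94.98% in the wild type ac4C list and 95% in the wild type IgG list. The highest NMD summit of a gene was lower than its highest coding summit in 78.8% of 2227 genes in the knockout ac4C list and in 84.9% of 2213 genes in the wild type ac4C list, with median ratios of 0.693 and 0.717. The IgG lists gave 78.5% of 2071 genes in knockout, against 86.9% of 2186 genes in wild type. Genes in which an NMD transcript was the sole class listed numbered 260 in the knockout ac4C list and 136 in the wild type ac4C list. Isoforms of a gene share sequence, and the sources used here do not state how reads that fit several isoforms were placed, so a summit listed on an NMD transcript can hold fragments of its coding isoforms.

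Some genes contributed many summits because many of their isoforms carry the label. HNRNPA2B1, an hnRNP protein that binds nascent transcripts, had 175 and 153 summits in the knockout ac4C and IgG lists and 90 in each wild type list, spread over 36 NMD transcripts. GARS1, the glycyl-tRNA synthetase, had 84 and 83 summits in the knockout ac4C and IgG lists and 64 in each wild type list. FLNA, the actin crosslinker filamin A, had 90 and 76 in the knockout lists and 49 in each wild type list. IGF2R, the mannose phosphate receptor, had 58 and 51 in the knockout ac4C and IgG lists and 38 and 36 in the wild type ac4C and IgG lists. AARS1, the alanyl-tRNA synthetase, went the other way, with 17 and 2 summits in the knockout ac4C and IgG lists and 93 and 96 in the wild type ac4C and IgG lists.

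Intervals on NMD transcripts were shorter in the knockout lists. Each interval counted once, their median width was 294 bases (ac4C) and 282 bases (IgG) in knockout, against 606 and 596 bases in wild type. They covered 31.2% (ac4C) and 28.2% (IgG) of the listed transcripts' length in knockout, against 50.2% and 49.4% in wild type. Counted once each, the listed NMD transcripts had a median length of 1738 bases (knockout ac4C list) and 1538 bases (wild type ac4C list). Protein-coding transcripts had medians of 2340 and 1850 bases in these lists.

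Summits were spread along the NMD transcripts. Each transcript was divided into 3 parts of equal length, and the 5′ part held 31.3% of them in the knockout ac4C list (interval 30.5 to 32.2), 27.6% in the knockout IgG list (26.8 to 28.6), 28.1% in the wild type ac4C list and 27.8% in the wild type IgG list. The 3′ part held 33.99% (ac4C) and 37.97% (IgG) in knockout, against 37.01% and 37.8% in wild type. Protein-coding transcripts of the knockout lists showed the same direction, with 32.4% of ac4C and 29.2% of IgG summits in the 5′ part. The first 100 bases held 155 summits in the knockout ac4C list and 86 in the knockout IgG list, and 1 in each wild type list.

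Within the knockout ac4C list the summits without an IgG counterpart lay further towards the 5′ end. Of them 42.5% were in the 5′ part, against 29.3% of the overlapping ones, and over all biotypes the shares were 39.95% and 30.1%. In the knockout IgG list the summits without an ac4C counterpart went the other way, with 22.2% in the 5′ part against 28.2%. In the wild type ac4C list the shares were 26.2% without and 28.2% with an IgG counterpart. In the wild type IgG list they were 28.4% without and 27.8% with an ac4C counterpart. The knockout samples carry no replicate lists, so whether it recurs between libraries was not tested.

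**Figure D3:**
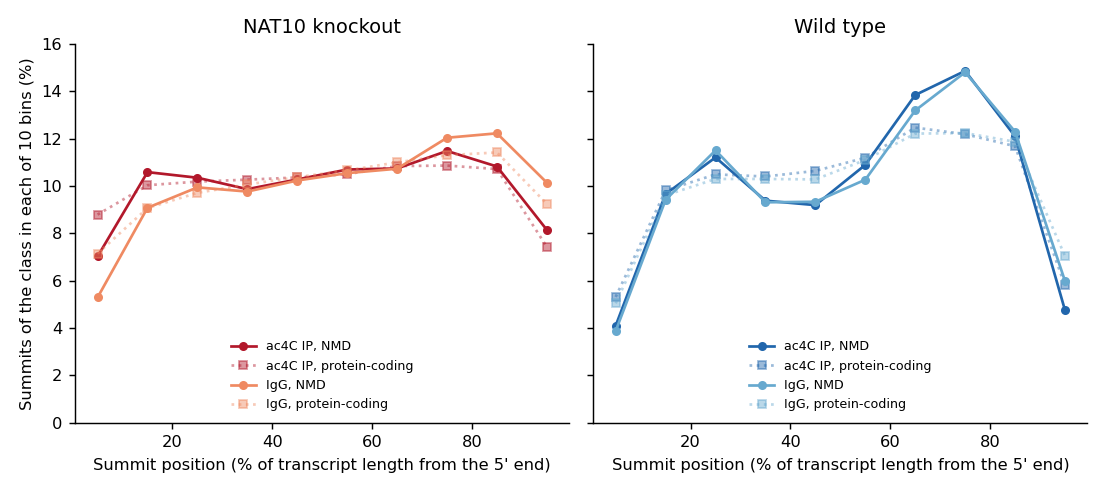
Share of summits (%) in each of 10 equal bins of the transcript from the 5′ end, for NMD transcripts (solid lines) and protein-coding transcripts (dotted lines), in the knockout (left) and wild type (right) ac4C and IgG lists. In knockout the ac4C line lies above the IgG line near the 5′ end, where the first bin of NMD transcripts holds 7.03% of ac4C and 5.29% of IgG summits, and in wild type both lines lie together at 4.1% and 3.88%.

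Ribosomal protein genes, whose products form the protein part of the ribosome, held many of the high summits on NMD transcripts. RPS2-212 had folds of 80.0 (ac4C) and 89.5 (IgG) in knockout, against 268.9 and 254.8 in wild type. RPL13A-214 had 72.6 and 62.6 in knockout, against 238.4 and 233.5 in wild type.

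Of 80 ribosomal protein genes, 34 had an NMD summit in either ac4C list, and the median fold over their summits was 28.7 (ac4C) and 26.1 (IgG) in knockout, against 74.3 and 72.6 in wild type. Among the highest 5% of NMD summits in each list, ribosomal protein genes made up 19.9% and 22.4% in the knockout ac4C and IgG lists and 16.4% and 17.2% in the wild type ac4C and IgG lists. Of all NMD summits they made up 1.29% (ac4C) and 1.45% (IgG) in knockout, against 0.949% and 0.943% in wild type. RPS25-206 was high in all lists, with 109.5 (ac4C) and 119.6 (IgG) in knockout, against 124.4 and 143.8 in wild type. RPL37A-202, of the large subunit, had 72.5 and 111.9 in knockout, against 19.1 and 24.5 in wild type.

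H4C14 and H4C15, genes for histone H4 chosen here after their values were seen, also had some of the high summits of the knockout lists. H4C14-204 had folds of 99.5 (ac4C) and 68.9 (IgG) in knockout, against 12.2 and 11.6 in wild type, with the ac4C summit at base 211 of 1547 in the knockout list. H4C15-202 had 93.5 and 71.7 in knockout, against 13.6 and 11.3 in wild type. Histone H4 genes have near-identical coding sequences, so their reads cannot be assigned to 1 gene with certainty. In the RNA-seq counts H4C14 had 9 and 14 reads in knockout, against 5 and 2 in wild type, and H4C15 had 0 in every library.

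SR proteins, the splicing factors whose own messages carry poison exons, were listed in either ac4C list for 12 of 14 genes. SRSF9-206 had folds of 21.9 (ac4C) and 18.6 (IgG) in knockout, against 49.8 and 48.7 in wild type. SRSF3-203 had 19.0 and 16.5 in knockout, against 37.9 and 39.7 in wild type. SRSF2-208 had 16.7 and 14.7 in knockout, against 24.9 and 23.7 in wild type, and TRA2B-206 had 7.51 and 5.69 in knockout, against 11.6 and 11.0 in wild type. One of the 12, SRSF11, was in the wild type ac4C list with no IgG summit on any of its NMD transcripts. None was so in knockout. Over all genes with an NMD summit the shares were 4.81% in the wild type and 13.7% in the knockout ac4C list.

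The hnRNP proteins and other splicing regulators were listed for 22 of 33 genes. HNRNPA1-205 had folds of 34.1 (ac4C) and 22.1 (IgG) in knockout, against 68.0 and 67.2 in wild type. SNRPB-203, of a core protein of the spliceosome's small nuclear particles, had 23.98 and 16.8 in knockout, against 63.6 and 57.2 in wild type. HNRNPK-207 had 22.1 and 14.7 in knockout, against 31.6 and 30.4 in wild type. The median fold over all summits of the hnRNP group was 4.8 (ac4C) and 4.84 (IgG) in knockout, against 8.13 and 7.35 in wild type.

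Factors of the NMD pathway itself were listed for 7 of 21 genes. The median fold over their summits was 3.28 (ac4C) and 3.42 (IgG) in knockout, against 4.2 and 4.22 in wild type, below the median of all NMD summits in the knockout lists and above it in the wild type lists. RBM8A, a core protein of the exon junction complex, had a fold of 4.07 on RBM8A-205 in the knockout ac4C list and none in the knockout IgG list, and 8.62 (ac4C) and 8.77 (IgG) in wild type. RNPS1-209, of a protein that joins the complex, had 4.07 in the knockout ac4C list and no knockout IgG summit, and 6.21 and 6.73 in wild type. ETF1-207, of the release factor that recognises stop codons, had 4.8 and 3.56 in knockout, against 4.61 and 5.38 in wild type. CASC3-204 had 4.69 and 3.13 in knockout, against 2.04 and 1.98 in wild type, and DHX34-202 had 3.75 and 3.84 in knockout, against 2.78 and 3.0 in wild type. MAGOHB-208, of an exon junction complex protein, was in the wild type ac4C list alone, at 3.8. Of the 6 genes in the knockout ac4C list, 3 had no knockout IgG summit on an NMD transcript, NBAS, RBM8A and RNPS1. The share over all genes with an NMD summit in that list was 13.7%. On coding transcripts in knockout RBM8A reached folds of 21.3 (ac4C) and 20.9 (IgG), and RNPS1 reached 9.18 and 7.97.

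Translation factors were listed for 24 of 42 genes. EEF1B2-208, of the exchange factor of elongation factor 1, had folds of 28.4 (ac4C) and 19.6 (IgG) in knockout, against 73.3 and 80.5 in wild type. EIF4B-210, of a cofactor of the cap-binding helicase, had 24.9 and 20.2 in knockout, against 23.3 and 23.2 in wild type. PABPC1-239, of the poly(A)-binding protein, had 15.95 and 29.6 in knockout, against 32.3 and 29.2 in wild type.

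Genes of RNA modification were listed for 9 of 24. FTO and YTHDF3 had NMD summits in knockout and in neither wild type list, and METTL3 had them in wild type and in neither knockout list. By a stricter criterion, both lists of 1 genotype and neither of the other, all NMD genes gave 19.5% (knockout) and 13.2% (wild type). FTO is the demethylase of N6-methyladenosine, and FTO-218 had folds of 38.4 (ac4C) and 44.1 (IgG) in knockout, with summits at bases 1474 and 1471 of 2105, and no summit on any FTO transcript in either wild type list. THUMPD1-206, of the partner of NAT10 in transfer RNA acetylation, had 30.1 and 31.3 in knockout at bases 2130 and 2127 of 2567, against 3.8 and 3.79 in wild type at bases 532 and 539. METTL14-206, of the methyltransferase complex, had 9.18 and 12.7 in knockout, no summit in the wild type ac4C list and 1.78 in the wild type IgG list. DKC1-204, of the pseudouridine synthase dyskerin, had 6.05 and 6.26 in knockout, against 8.93 and 8.77 in wild type. RNA-seq of FTO was 41.3 and 39.9 CPM (reads scaled to the library total) in knockout, against 36.0 and 36.7 CPM in wild type, and that of THUMPD1 was 139.0 and 144.8 CPM in knockout, against 157.3 and 155.1 CPM in wild type. Neither passed the test (edgeR adjusted p = 0.358 and 0.268).

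Erythroid genes were listed for 13 of 42. FTH1-210, of the ferritin heavy chain, had folds of 48.0 (ac4C) and 45.6 (IgG) in knockout, against 174.3 and 179.5 in wild type. UROD-227, of the haem synthesis enzyme uroporphyrinogen decarboxylase, had 9.7 and 9.82 in knockout, against 45.8 and 44.1 in wild type. GYPB-207, of the red cell surface protein glycophorin B, had none in knockout, against 10.2 and 12.96 in wild type. The stress genes known as NMD substrates were listed for 4 of 20: ASNS-213, of asparagine synthetase, had 8.24 and 8.97 in knockout, against 20.9 and 21.2 in wild type.

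**Figure D4:**
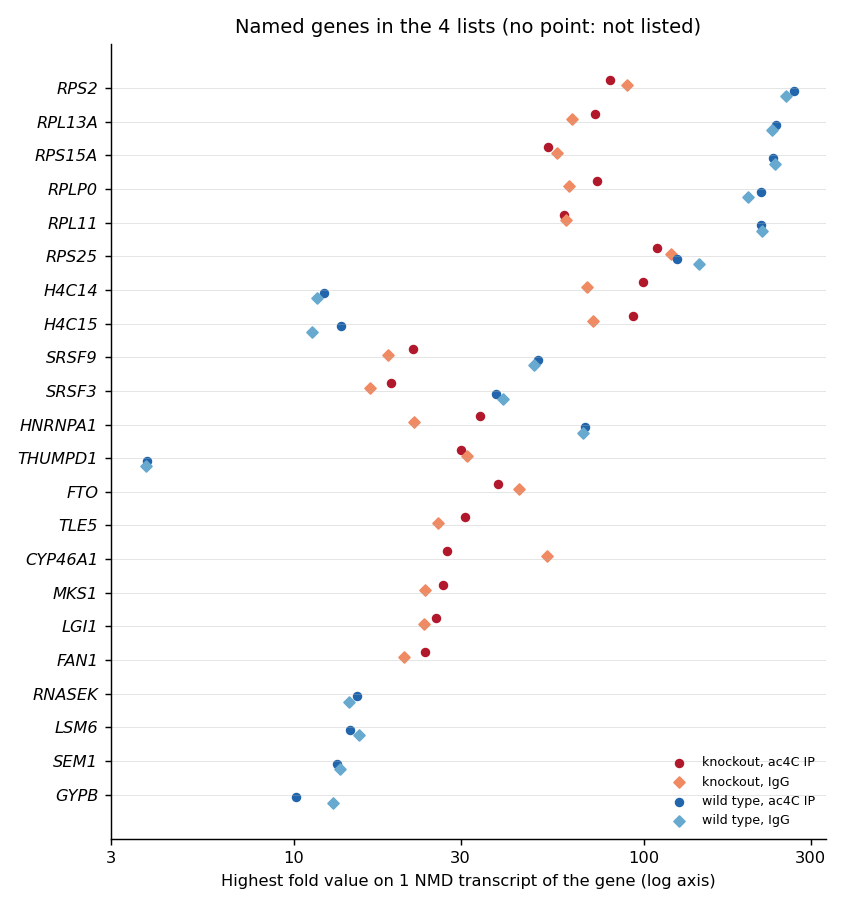
Highest fold value (log axis) on 1 NMD transcript of each named gene in the knockout ac4C, knockout IgG, wild type ac4C and wild type IgG lists; no point means that the transcript is not listed. The ac4C and IgG points of a genotype lie close together in most genes, though not in CYP46A1 (27.4 and 52.95). In the ac4C lists the knockout fold is the lower one in RPL13A (72.6 against 238.4) and the higher one in H4C14 (99.5 against 12.2). A gap between folds of different lists is not a measure of change.

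The genes with an NMD summit in the knockout ac4C list and in neither wild type list numbered 805, a count not made over all biotypes. Their highest summits had a median fold of 5.0. Of these summits 72.9% had an IgG summit of the knockout within 100 bases. Over all NMD summits in the knockout ac4C list, not only the highest of each gene, the share was 68.4%, so the sets are unlike. The 8 highest, chosen after their values were seen, each had an IgG summit on the same transcript. TLE5-203, of a transcriptional corepressor, had folds of 30.9 (ac4C) and 25.8 (IgG), and CYP46A1-204, of a cholesterol hydroxylase of the brain, had 27.4 and 52.95. MKS1-222, of a protein of the ciliary transition zone, had 26.8 and 23.8, both at base 2389. LGI1-217, of a secreted neuronal protein, had 25.5 and 23.6, and FAN1-220, of a DNA repair nuclease, had 23.8 and 20.6. The summits of the antibodies thus lay at the same place, within 7 bases in these 5 isoforms. On transcripts of other classes, TLE5 had 12 summits in each wild type list and FAN1 had 1 in the wild type IgG list. CYP46A1, MKS1 and LGI1 had no summit on any transcript in the wild type lists.

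RNA-seq of these genes ranged from no reads to high levels. CYP46A1 had 0 RNA-seq reads in both knockout libraries and 2 and 1 in the wild type libraries, and LGI1 had 0 in both knockout libraries and 3 and 0 in wild type. MKS1, with 46.5 and 47.5 CPM in knockout, against 45.4 and 47.9 CPM in wild type, and TLE5, with 565.3 and 562.03 CPM in knockout, against 524.5 and 502.5 CPM in wild type, did not pass the test of RNA change (edgeR adjusted p = 0.954 and 0.355). Among the 805 genes 191 (23.7%) had a mean under 1 CPM in the knockout RNA-seq. The reverse set, with an NMD summit in the wild type ac4C list and neither knockout list, held 529 genes, also not counted over all biotypes. Among the 529 genes, 39 (7.37%) had a mean under 1 CPM in the wild type RNA-seq. The highest summits of the 529 had a median fold of 3.03. Of these summits, 73.5% had a wild type IgG summit within 100 bases. Over all NMD summits in the wild type ac4C list, again an unlike set, the share was 82.1%. Counted by summit and not by gene, 6.46% (knockout ac4C list) and 5.04% (wild type ac4C list) of all NMD summits lay in genes under 1 CPM. Some genes with few RNA-seq reads had many footprints (HBE1, below), so few reads need not mean little message.

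High ones among the 529, were again chosen after their values were seen. RNASEK-206 had folds of 15.2 (ac4C) and 14.4 (IgG) in wild type. LSM6-207, of a ring protein in RNA decay and splicing, had 14.5 and 15.3, and SEM1-206, of a proteasome subunit, had 13.3 and 13.5. On transcripts of other classes, each knockout list held 3 summits of RNASEK, 3 of SEM1 and 1 of LSM6.

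Fold values followed RNA level in the wild type lists and hardly in the knockout lists. Across genes, which are not independent and share the libraries, the highest NMD fold of a gene and its RNA-seq CPM per kilobase had a Spearman correlation of 0.0761 in the knockout ac4C list (2503 genes), 0.0278 in the knockout IgG list (2340), 0.486 in the wild type ac4C list (2280) and 0.467 in the wild type IgG list (2259). In 4 equal groups of genes from the lowest to the highest RNA level the median fold was 6.57, 4.59, 5.0 and 6.88 in the knockout ac4C list and 3.06, 3.88, 6.17 and 10.6 in the wild type ac4C list. In knockout the lowest group thus stood almost as high as the top one. RNA level here rests on RNA-seq counts, which for some genes were far below their footprints (HBE1, below).

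Some ac4C summits lay on NMD transcripts with no IgG summit of the same genotype at all. With a q-value column (−log10 q) of at least 5, the knockout ac4C list had 573 of them in 429 genes, or 6.2% of its NMD summits at that q value, against 3.94% of all summits. The wild type ac4C list had 175 in 159 genes, or 2.23% against 1.64% of all. The same count for IgG without ac4C was 226 in 202 genes in knockout (2.87%, against 2.05% of all), and 134 in 126 genes in wild type (1.73%, against 1.59% of all). Their folds reached 10.8 (ac4C) and 10.8 (IgG) in knockout, against 4.54 and 5.38 in wild type.

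In knockout the highest of these was on SFPQ-202, of a splicing and paraspeckle protein, with a fold of 10.8 at base 173 of 464. It was followed by KIF22-210, of a mitotic kinesin, with 10.7 at base 99, and MUTYH-229, of a base excision repair glycosylase, with 10.3 at base 204 of 507. HNRNPA1-284 had 7.61 at base 225 of 324, AL451136.1-201 had 7.51, DMPK-206, of the myotonic dystrophy kinase, had 7.51 at base 93 of 2920, EIF3G-215 had 7.19 and AC091057.5-202 had 6.88. SFPQ, HNRNPA1, KIF22 and EIF3G each had another NMD isoform with an IgG summit in knockout, for example SFPQ-206 with 20.3 (ac4C) and 18.8 (IgG). MUTYH and DMPK had no NMD summit in wild type.

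In wild type the highest were SPAG7-208 with a fold of 4.54 at base 500 of 694, TRAP1-205, of a mitochondrial chaperone, with 4.51 at base 133 of 480, and VAPA-209, of a membrane contact protein of the endoplasmic reticulum, with 4.36 at base 143 of 567. MAGOHB-208 had 3.8, UBE2B-207 3.71, PANK4-205 3.59, INTS10-218 3.52 and ZPR1-205 3.43. In the knockout lists VAPA-209 had summits with both antibodies, at 7.51 (ac4C) and 5.27 (IgG). SPAG7, UBE2B and MAGOHB had no NMD summit in knockout and a coding summit in both knockout lists.

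Gene-level counts show how the messages of these genes differed between genotypes, without separating NMD from coding isoforms. In these bulk libraries fewer cells with a message and less of it per cell cannot be told apart. NAT10 itself had no NMD summit in any list. Its RNA fell to 49.9 and 49.3 CPM in knockout, against 138.5 and 144.4 CPM in wild type (log2 fold change −1.51, SE 0.0852, edgeR adjusted p = 0.000102), and its footprints fell to 55.4 and 48.3 CPM, against 176.2 and 187.6 CPM (log2 fold change −1.82, SE 0.186, adjusted p = 0.000334). RNA libraries held 18093324 and 18778485 counts in knockout, against 10388717 and 12725302 in wild type, and footprint libraries 1173526 and 621287 in knockout, against 1220308 and 911336 in wild type. The 2 knockout RNA libraries differed by hardly more than counting noise (chi-square 1.03 per degree of freedom, against 12.5 for the wild type pair), so they were summed and counted as 1 sample. Nothing in the labels says that libraries came from separate cultures, so p-values measure the spread between these libraries. In RNA that is the spread between the wild type libraries alone, since knockout counts as 1 sample. All 10 K562 identity genes had RNA-seq reads in every library, with HBE1 the lowest, at 2.04 and 2.56 CPM in knockout, against 2.41 and 0.786 CPM in wild type. HBE1 footprints were far higher, at 5557 and 4421 CPM in knockout, against 1894 and 1433 CPM in wild type. ASNS likewise had 8.18 and 9.16 CPM in RNA and 963.8 and 1006 CPM in footprints of knockout. RNA-seq counts of such genes may thus misstate the level of their message, and the cause was not tested.

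Of the 3218 genes with an NMD summit in either ac4C list, 2911 were tested in RNA, where 14% of all genes tested were called in either direction. Higher RNA in knockout was called for 184 (6.32%, against 5.17% of all genes tested) and lower RNA for 314 (10.8%, against 8.79%). Their median log2 fold change was 0.02, against −0.00065 over all genes tested. Genes with a coding but no NMD summit in the ac4C lists gave close values, 435 higher and 743 lower of 6681. Genes whose NMD summit was in the knockout ac4C list only had 34 higher and 60 lower of 683, and those in the wild type ac4C list only 24 higher and 61 lower of 564. With DESeq2 the counts of the 3218 genes were 61 higher and 204 lower, with the knockout libraries kept apart 588 and 661, and without the filter on low counts 458 and 293, so the balance of rises and falls depends on these choices.

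Footprints of 2644 of the 3218 genes were tested, against a background of 5.34% of all genes called in either direction. They held 39 higher (1.48%, against 1.47% of all) and 122 lower (4.61%, against 3.87%) in knockout, and a median log2 fold change of −0.0016 against 0.0047 over all. Genes of the knockout ac4C list only had 17 higher and 14 lower of 536 with a median of 0.07. Genes of the wild type ac4C list only had 3 higher and 24 lower of 524 with a median of −0.08. The difference between these sets was not tested. Among all 3218, the number of higher genes was 62 when knockout replicate 1 was left out, 78 when knockout replicate 2 was, 16 when wild type replicate 1 was left out and 19 when wild type replicate 2 was. The number of lower genes was then 70 and 72. With DESeq2 the footprint counts were 9 higher and 57 lower, without the filter on low counts 80 and 186, and with the replicate number as a block 214 and 309.

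**Figure D5:**
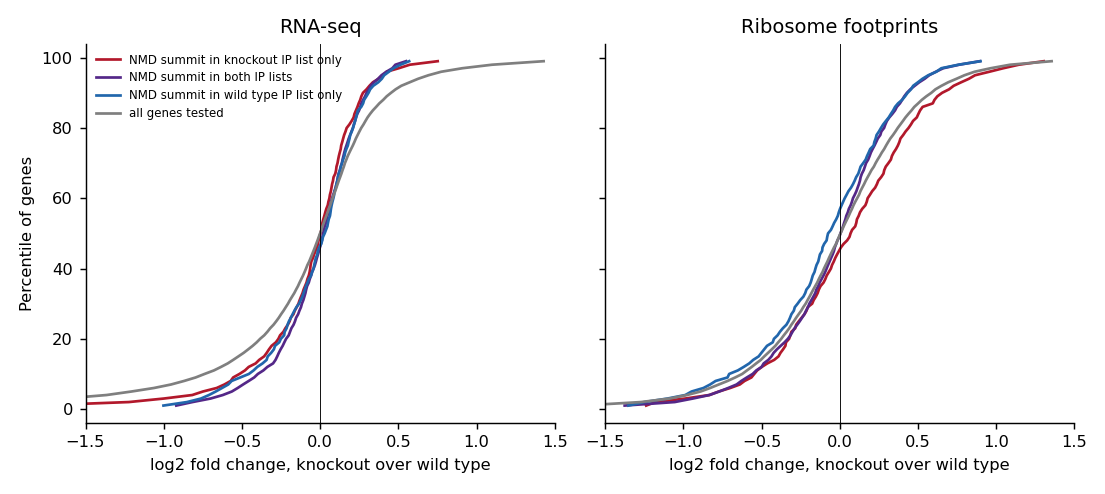
Percentiles of the log2 fold change, knockout over wild type, of RNA-seq (left) and ribosome footprints (right) for genes with NMD summits in the knockout ac4C list only, in both ac4C lists, in the wild type ac4C list only, and for all genes tested. In RNA the medians lie near 0 in every set, and in footprints they are 0.07 for the knockout-only set and −0.08 for the wild type-only set.

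Of the 24 translation factors with an NMD summit, 7 fell in RNA (29.2%, against 8.79% of all genes tested): EIF3F, EIF4B, EIF3M, EIF3L, EIF3E, PABPC4 and EIF3H. EIF6 rose in RNA (4.17%, against 5.17%), and EIF4G2 and EEF1B2 rose in footprints (8.33%, against 1.47%). DESeq2 called 0 of these 24 genes in footprints. EIF3M RNA was 178.4 and 177.5 CPM in knockout, against 293.2 and 299.4 CPM in wild type (log2 fold change −0.73, SE 0.088, adjusted p = 0.00203), and EIF4B RNA was 401.1 and 402.6 CPM in knockout, against 648.1 and 736.0 CPM in wild type (−0.78, SE 0.123, adjusted p = 0.00583). EEF1B2 footprints were 169.6 and 143.3 CPM in knockout, against 96.7 and 77.9 CPM in wild type (0.81, SE 0.186, adjusted p = 0.0257), a call lost without knockout replicate 1 (adjusted p = 0.0883) or wild type replicate 2 (0.156) and with DESeq2 (0.113).

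Of the 34 ribosomal protein genes, 4 fell in RNA (RPL27A, RPL3, RPL13A and RPS9), or 11.8% against 8.79% of all genes tested, and none rose, against 5.17%. In footprints 2 of 30 tested rose (RPL35A and RPS19), or 6.67% against 1.47% of all. RPL13A RNA was 1113 and 1097 CPM in knockout, against 1524 and 1738 CPM in wild type (−0.56, SE 0.127, adjusted p = 0.0254). Of the 12 SR protein genes edgeR and DESeq2 called 0 in either assay, against 14% of all genes called by edgeR in RNA and 5.34% in footprints, and 2 had an unadjusted p under 0.05 in each assay. Of the 9 RNA modification genes both tools also called 0, and 3 in RNA and 0 in footprints had an unadjusted p under 0.05. Among the 22 hnRNP and splicing genes HNRNPLL rose in both assays and HNRNPDL in footprints. These were 4.55% in RNA, against 5.17% of all genes tested, and 9.09% in footprints, against 1.47%. DESeq2 called 0 of these 22 genes in footprints. Of the 4 stress genes with an NMD summit CARS1 fell in both assays (25%, against 8.79% of all in RNA and 3.87% in footprints). In RNA 1 of the 7 NMD factors was called higher (14.3%, against 5.17%). Of the 7 NMD factors MAGOHB rose in RNA, to 32.4 and 34.2 CPM in knockout, against 23.6 and 23.8 CPM in wild type (0.49, SE 0.117, adjusted p = 0.03), a call that DESeq2 did not make (adjusted p = 0.266).

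Of the 13 erythroid genes with NMD summits SLC25A37 (mitoferrin, the mitochondrial iron importer), FECH (ferrochelatase) and GYPB rose in RNA (23.1%, against 5.17% of all genes tested) and LMO2, a transcription cofactor of the erythroid programme, fell (7.69%, against 8.79%). GYPB RNA was 10.2 and 11.2 CPM in knockout, against 4.43 and 4.4 CPM in wild type (1.28, SE 0.196, adjusted p = 0.00528), although its NMD isoform was listed in wild type alone. Its RNA call was not made by DESeq2 (adjusted p = 0.0666), and its footprint rise (1.95, SE 0.396, adjusted p = 0.0141) was lost without wild type replicate 1 (adjusted p = 0.0713). GYPB and GYPE are near-identical copies, so reads may be split between them. LMO2 RNA was 124.6 and 121.8 CPM in knockout, against 207.2 and 193.9 CPM in wild type (−0.7, SE 0.0757, adjusted p = 0.00133). CARS1, the cysteinyl-tRNA synthetase among the stress genes, fell in RNA to 139.2 and 139.6 CPM, against 211.0 and 204.5 CPM (−0.57, SE 0.0759, adjusted p = 0.00304), and in footprints to 314.4 and 313.9 CPM, against 529.4 and 489.4 CPM (−0.73, SE 0.14, adjusted p = 0.0115; 0.0786 without wild type replicate 1).

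The largest RNA rises among genes with NMD summits were those of RYR2, ANK3, GYPE, PTH2R and PSPH. They were taken from genes with no overlap between genotypes and a mean log2 CPM of 3 or more. In RNA the overlap was judged on the summed knockout value, not library by library. The call of PTH2R, a peptide hormone receptor, was not made by DESeq2 (adjusted p = 0.0936). RYR2, the cardiac calcium release channel, had 43.4 and 43.8 CPM in knockout, against 13.6 and 11.6 CPM in wild type (1.8, SE 0.129, adjusted p = 0.000265). ANK3, an ankyrin that links membrane proteins to the cytoskeleton, had 35.7 and 38.9 CPM in knockout, against 14.6 and 13.7 CPM in wild type (1.4, SE 0.124, adjusted p = 0.000591). PSPH, the phosphatase of serine synthesis, had 205.2 and 207.5 CPM in knockout, against 117.8 and 121.5 CPM in wild type (0.79, SE 0.0763, adjusted p = 0.000858). The isoform ANK3-232 had folds of 10.8 (ac4C) and 12.5 (IgG) in knockout and was in neither wild type list. Among genes with NMD summits ANK3 also had the largest footprint rise by the same criteria, with 50.3 and 45.1 CPM in knockout, against 10.7 and 6.58 CPM in wild type (2.39, SE 0.338, adjusted p = 0.00278). EI24, an endoplasmic reticulum protein of autophagy, rose in footprints to 114.2 and 156.1 CPM in knockout, against 50.0 and 42.8 CPM in wild type (1.47, SE 0.223, adjusted p = 0.00291).

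Among the largest RNA falls were those of EDARADD, PDK3, NAV1 and CD37. EDARADD, an adaptor of the ectodysplasin receptor, had 1.82 and 2.72 CPM in knockout, against 18.7 and 21.4 CPM in wild type (−3.13, SE 0.215, adjusted p = 0.000221), while EDARADD-205 was listed in the knockout ac4C list, at a fold of 4.8, and in neither wild type list. PDK3, a kinase of the pyruvate dehydrogenase complex, had 4.31 and 4.85 CPM in knockout, against 26.4 and 28.7 CPM in wild type (−2.58, SE 0.17, adjusted p = 0.000201). Its isoform PDK3-204 had folds of 15.4 (ac4C) and 15.7 (IgG) in knockout at bases 3868 and 3864 of 4720, against no wild type ac4C summit and 2.28 in the wild type IgG list. CD37, a tetraspanin of leukocytes, had 8.95 and 9.9 CPM in knockout, against 38.3 and 37.2 CPM in wild type (−2.0, SE 0.13, adjusted p = 0.000193), with NMD summits in wild type alone, at folds of 2.54 and 2.9. Of these 4 genes, EDARADD, PDK3 and NAV1 thus had an NMD summit in the knockout ac4C list while their RNA was lower there.

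In footprints ACE, the angiotensin-converting enzyme, had 1 and 0 counts in knockout, against 15 and 13 in wild type. The ratio of its summed counts per library total, knockout over wild type, was 0.0424, with an exact 95% interval of 0.00104 to 0.257. Its isoform ACE-216 had folds of 6.26 (ac4C) and 9.11 (IgG) in knockout and was in neither wild type list. SLC6A19, a neutral amino acid transporter, had 3 and 3 counts in knockout, against 17 and 26 in wild type, a ratio of 0.166 (0.0576 to 0.391). The intervals of both ratios cover counting error only. Footprint libraries of a genotype differed by more than that (chi-square 2.38 per degree of freedom in knockout, 2.56 in wild type). Both calls (edgeR adjusted p = 0.013 for ACE and 0.0266 for SLC6A19) were lost without wild type replicate 2, at 0.0558 and 0.202, and that of SLC6A19 also without knockout replicate 1, at 0.0907. EEF1A2, an elongation factor of muscle and neurons, had 11.1 and 14.5 CPM in knockout, against 49.2 and 47.2 CPM in wild type (−1.99, SE 0.307, adjusted p = 0.0033), and its isoform EEF1A2-208 had a fold of 2.61 in the knockout ac4C list, none in the knockout IgG list, and 6.15 and 6.07 in wild type.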

How the data were processed

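The 4 peak lists came from acRIP-seq reads of 2 merged libraries each, called on transcript sequences against input, per the file names and the series design text. Their fold ratio (column 7), −log10 q value and score are the authors' deposited values, in the 10-column layout of MACS2. Read counts per gene were deposited by the authors from alignments with duplicates removed, per the file headers. The submitters' processing notes name Bowtie2, MACS2, STAR, featureCounts, cutadapt, Trimmomatic, SAMtools and GRCh38.p13 without roles. Versions, the strand setting and the handling of reads shared by isoforms are not given in the sources used here.

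Members were the entries whose sequence name carries the biotype nonsense_mediated_decay, and a summit counted as shared where its interval overlapped one of the other list on the same transcript by at least 1 base. Transcript positions are 1-based from the 5′ end. Intervals ran past the stated transcript length for 179 NMD summits of the knockout ac4C list and for 11 of the wild type ac4C list, and were kept. Shares have 95% exact binomial intervals, which cover counting error only and take each summit as independent. Summits of 1 peak interval, or of isoforms that share sequence, are not independent, so these intervals are too narrow. RNA-seq (2 knockout libraries summed, against 2 wild type libraries) and footprints (2 against 2) went into edgeR 4.0.16 (R 4.3.3) with TMM, filterByExpr, the quasi-likelihood test and Benjamini-Hochberg adjustment over all 16277 genes tested in RNA and 8887 in footprints, with 0.05 as threshold; the fit was tested on simulated data. DESeq2 1.42.0 was an alternative. CPM values are counts scaled to the library total. Estimates for a left-out library assume that a lone library varies like the others. Tables were handled with Python 3.11.15 and pandas 2.3.3.

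Named genes were NAT10; up to 6 genes per list of related genes, by the highest −log10 q; the 8 highest ac4C summits per genotype with −log10 q of at least 5 and no IgG summit on the transcript; the 4 highest IgG summits per genotype; the 5 genes with most summits; and the 5 largest called rises and falls per assay, at a mean log2 CPM of at least 3. The members, the 8 gene lists and the tests were chosen with earlier results of these data known. Values of some genes that these rules name are not reported here.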

Additional observations from a re-analysis of the deposited data

Results flagged for a closer look

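The median fold value of summits on NMD transcripts was lower with the ac4C antibody than with IgG in knockout, where ac4C minus IgG was −0.242 (4.17 against 4.41), and higher in wild type, where it was 0.0111 (3.77 against 3.76). The opposite signs brought these values here, but the wild type gap was smaller than 1 step of the fold grid of either wild type list. At −log10 q of at least 5 the wild type medians were 4.11 (ac4C) and 4.09 (IgG). With 1 summit per gene they were 4.76 and 4.78, so the sign was then the same as in knockout. The difference was not tested, since each list is a single merged one. One step of the fold grid was 0.104 in the knockout ac4C list, 0.142 in the knockout IgG list, 0.0309 in the wild type ac4C list and 0.033 in the wild type IgG list.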

How the results depend on the processing

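Peak shares depended on the definition of a counterpart. The knockout share of ac4C summits without IgG (15.2%) was 16.01% at −log10 q of at least 5, 32.6% when 50% of both intervals had to overlap, 31.6% by summits within 100 bases, 24.8% over unique intervals and 13.7% over genes. The wild type share (4.95%) was 9.8%, 17.9% and 8.08% under the 50%-overlap, 100-base and unique-interval settings. The share of knockout ac4C summits overlapping wild type (72.1%) was 73.3%, 43.7%, 35.0%, 60.1% and 67.6% under those 5 settings in the order above. The 100-base and unique-interval settings were chosen after the data were seen. Median folds at −log10 q of at least 5 and with 1 summit per gene were 4.69 and 5.53 (knockout ac4C), 4.98 and 5.69 (knockout IgG), 4.11 and 4.76 (wild type ac4C), and 4.09 and 4.78 (wild type IgG). The first-third share was 25.1% by interval midpoint and 30.4% with 1 summit per gene in the knockout ac4C list, and 15.0% and 23.7% in the wild type ac4C list. The higher share of ac4C summits without IgG in knockout than in wild type was found under each of these settings.

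Of genes with NMD summits, RNA calls (184 higher, 314 lower) became 458 higher with no filter on low counts, 61 and 204 with DESeq2, 588 and 661 with the knockout libraries kept apart, and 71 and 129 among genes with an ac4C summit lacking IgG, a smaller set. The median log2 fold change (0.0153) was 0.0854 with no filter and 0.00917 with the libraries apart. Leaving out 1 library gave 159 to 177 higher, 306 to 307 lower and medians of 0.00579 to 0.016; without a wild type library no residual degrees of freedom remain, so only the median was taken. Footprint calls (39 and 122) became 80 and 186 with no filter, 9 and 57 with DESeq2, and 16 and 47 among the smaller set; leaving out 1 library gave 16 to 78 higher, 70 to 154 lower and medians of −0.0303 to 0.021. Apart from the smaller set, the cause of these changes was not tested.

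With the replicate number as a block, RNA calls were 526 higher and 622 lower (median 0.0100) and footprint calls 214 and 309. Same-numbered libraries had correlated deviations of −0.0165 in RNA and 0.231 in footprints. The labels do not say that a number marks a shared batch, so the libraries share only a number. Of the values of single named genes under an alternative, 4 RNA and 17 footprint calls were lost and 56 and 32 gained, with no change of sign. Footprint depth limits the named falls: ACE and SLC6A19 rest on 3 or fewer counts in each knockout library.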
